A study of Mus musculus with 8 samples.

Results

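CpG-dense sites with high methylation were examined in hepatocyte DNA of 8 mice. A CpG, a cytosine followed by a guanine, counted as dense when 10 or more other CpGs with a read lay within 100 bases of it, and as highly methylated when the unweighted mean over the 8 mice was above 80%. Of 874644 CpGs on chromosomes 1 to 19 with 5 or more reads in every mouse, 361866 were dense, and 18839 of these met both conditions. These 18839 dense methylated CpGs made up 2.15% of all tested CpGs and 5.21% of the dense ones. The dense remainder held 330393 CpGs with a mean under 20%, called dense unmethylated here, and 12634 in between. A further 216200 CpGs above 80% were sparse, with at most 4 neighbours in the same distance.

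The measurement was reduced representation bisulfite sequencing (RRBS), in which the enzyme MspI cuts at CCGG, the short fragments are kept and bisulfite turns unmethylated cytosines into bases read as thymine. The mid-aged group held 4 mice of 40 weeks and the young group 4 mice of 10 weeks. All were female, of the C57Bl6/J genotype and on a control diet, and the comparison asked how methylation in hepatocytes differs with age. Hepatocytes had been enriched by perfusing the liver with collagenase and spinning the cells at low speed. Each sample was 1 mouse. Because density and mean methylation chose the sites, both are given below as descriptions with no test. The lowest mean inside the rule was 80.001606% and the highest dense mean outside it was 79.999162%, with 549 sites between 80 and 82% and 487 dense CpGs between 78 and 80%. At the density threshold, 5637 sites had exactly 10 neighbours, and 8384 other CpGs above 80% had 9.

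Mammalian CpGs are scarce because methylated cytosine mutates readily to thymine, and most of those that remain are methylated. The exception is the CpG island, a dense cluster that usually lies over a gene start and stays unmethylated in most tissues, whether or not the gene is used. Dense methylation is known chiefly from start sites of genes reserved for germ cells, from the methylated allele of imprinted genes and from exons inside transcribed genes.

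Total reads at CpGs ranged from 84688363 to 118475218 in the mid-aged libraries and from 46382661 to 72783367 in the young ones, so every mid-aged library was deeper. Median reads at the dense methylated CpGs were 48, 91, 61 and 93 in the mid-aged mice and 31, 44, 41 and 56 in the young mice. Reads carried no molecular identifiers, so counting error here treats every read as a separate molecule. The SDs and the tests by age also take in the spread between mice.

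The sequences that carry the findings are printed 5′ to 3′ on the named strand of GRCm38, with the C and G of every dense methylated CpG in capitals. A CpG left in lower case was either not tested or outside the rule. The first 4 are stretches beside the starts of germ-cell genes, shown for their many dense methylated CpGs. In the order printed their GC content was 72.5, 65.6, 56.9 and 68.1%. Hsf5 encodes a heat shock factor of the male germ line, Slc25a31 a testis form of the mitochondrial ADP/ATP carrier, Dazl a germ-cell RNA-binding protein and Msh4 a protein of meiotic recombination. The stretches lay from 192 to 33 bases before the start of Hsf5, and from 227 to 386, from 227 to 386 and from 250 to 409 bases after the first starts of Slc25a31, Dazl and Msh4.
Hsf5 (chr11:87616972-87617131, plus strand): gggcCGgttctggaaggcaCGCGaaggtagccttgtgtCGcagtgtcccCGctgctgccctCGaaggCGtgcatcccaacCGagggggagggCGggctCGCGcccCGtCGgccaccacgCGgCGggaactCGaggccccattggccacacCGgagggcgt
Slc25a31 (chr3:40709082-40709241, plus strand): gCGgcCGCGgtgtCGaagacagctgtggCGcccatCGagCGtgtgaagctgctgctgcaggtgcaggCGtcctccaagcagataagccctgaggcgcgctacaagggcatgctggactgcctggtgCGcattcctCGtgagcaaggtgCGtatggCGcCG
Dazl (chr17:50293250-50293409, minus strand): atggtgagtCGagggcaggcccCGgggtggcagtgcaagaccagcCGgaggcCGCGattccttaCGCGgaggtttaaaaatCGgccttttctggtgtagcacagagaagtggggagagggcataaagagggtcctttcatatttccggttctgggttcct
Msh4 (chr3:153905729-153905888, minus strand): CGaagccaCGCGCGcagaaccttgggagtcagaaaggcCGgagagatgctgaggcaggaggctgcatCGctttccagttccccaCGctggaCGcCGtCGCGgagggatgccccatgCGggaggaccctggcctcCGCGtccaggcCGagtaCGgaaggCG

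The next 2 come from 2 of the 3 coding-exon stretches with the most such CpGs, in Shroom3, an actin-binding regulator of cell shape, and in the zinc-finger gene Zfp865, which shares its exon with the overlapping models Gm44973 and Ccdc106. In the Shroom3 stretch 24 of 25 CpGs were dense methylated, with means from 91.3 to 98.8%. In the Zfp865 stretch 19 of 20 were, with means from 93.4 to 99.4%.
Shroom3 (chr5:92942410-92942569, plus strand): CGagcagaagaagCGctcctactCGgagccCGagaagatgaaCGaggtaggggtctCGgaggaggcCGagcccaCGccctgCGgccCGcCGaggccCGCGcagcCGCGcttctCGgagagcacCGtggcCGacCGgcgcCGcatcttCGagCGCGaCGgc
Zfp865 (chr7:5030555-5030714, plus strand): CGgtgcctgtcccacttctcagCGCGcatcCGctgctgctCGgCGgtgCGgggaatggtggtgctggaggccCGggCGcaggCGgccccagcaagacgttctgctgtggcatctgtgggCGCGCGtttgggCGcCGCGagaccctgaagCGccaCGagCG

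The last 4 hold CpGs called as differing with age in the main test, and these calls depended on the fit, as given below. In Cyp26c1, a retinoic acid degrading cytochrome, 3 of 4 dense methylated CpGs were called higher in mid-aged mice. Called lower were 1 of 1 in Bahcc1, a chromatin protein, and 1 of 13 in Epha2, an ephrin receptor kinase. In D1Pas1, a testis RNA helicase, 2 of 18 were called lower. The Bahcc1 stretch holds a single dense methylated CpG among 10 tested, while all 18 CpGs of the D1Pas1 stretch qualified.
Cyp26c1 (chr19:37693114-37693273, plus strand): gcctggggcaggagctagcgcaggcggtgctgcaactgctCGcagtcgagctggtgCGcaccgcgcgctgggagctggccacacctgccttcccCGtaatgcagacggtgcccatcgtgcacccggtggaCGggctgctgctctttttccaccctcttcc
Bahcc1 (chr11:120280558-120280717, plus strand): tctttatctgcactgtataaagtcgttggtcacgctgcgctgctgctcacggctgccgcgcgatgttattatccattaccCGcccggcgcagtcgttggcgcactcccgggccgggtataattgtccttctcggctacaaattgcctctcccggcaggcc
Epha2 (chr4:141308801-141308960, plus strand): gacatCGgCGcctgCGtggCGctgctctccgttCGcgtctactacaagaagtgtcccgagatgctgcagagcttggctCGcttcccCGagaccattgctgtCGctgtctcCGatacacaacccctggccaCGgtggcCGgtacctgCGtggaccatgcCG
D1Pas1 (chr1:186968019-186968178, plus strand): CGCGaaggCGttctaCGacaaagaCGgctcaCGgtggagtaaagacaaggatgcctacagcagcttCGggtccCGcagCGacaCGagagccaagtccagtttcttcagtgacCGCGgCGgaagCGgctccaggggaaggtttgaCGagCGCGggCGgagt

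Most dense methylated CpGs lay inside genes and away from their starts. Each CpG was placed once, first in a start window of 500 bases on either side of an annotated transcript start, then in a coding exon, another exon, an intron or between genes. Coding exons held 11316 of the 18839 sites (60.1%), start windows of coding or non-coding transcripts 2475 (13.1%), introns 2283 (12.1%), other exons 694 (3.68%) and stretches between genes 2071 (10.99%). The dense unmethylated CpGs had the opposite arrangement, with 74.9% in start windows and 8.06% in coding exons. Sparse methylated CpGs differed again, with 48.1% in introns, 36.1% between genes and only 8.41% in coding exons. No test was run on these shares, which are counts over sites chosen by the rule. Seen from the dense CpGs, 26.2% of those in coding exons were highly methylated, against 0.976% of those in start windows, 5.94% in introns and 11.2% between genes.

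**Figure D1:**
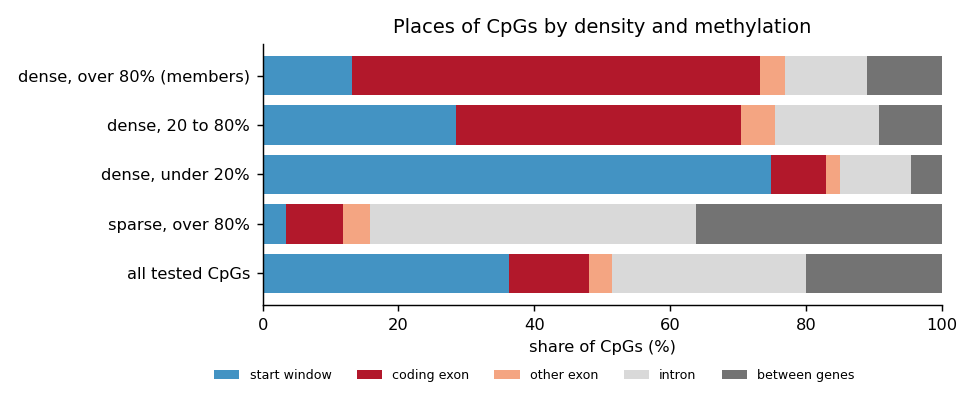
Share of CpGs (%, horizontal axis) in each kind of place for 5 sets of tested CpGs, with the dense methylated CpGs (members) in the top bar. The coding exon segment took 60.1% of the top bar, against 8.06% of the dense unmethylated and 8.41% of the sparse methylated CpGs.

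The share of dense CpGs that were highly methylated was lowest at gene starts and climbed on both sides. From 500 to 200 bases before the nearest protein-coding start it was 0.370% of 21596 dense CpGs, and within the first 200 bases after the start it was 0.516% of 87557. From 500 to 1000 bases downstream the share was 1.002%, from 2000 to 5000 bases it was 16.98%, and from 10000 to 20000 bases it reached 37.5% of 6234. Upstream the climb was smaller, to 22.8% of 3599 dense CpGs from 20000 to 10000 bases before a start.

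**Figure D2:**
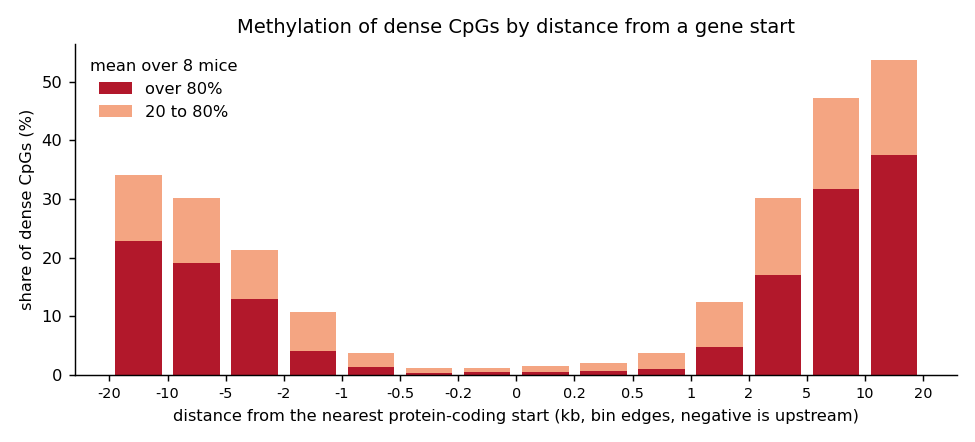
Share of dense CpGs (%, vertical axis) with a mean over 80% (dark bars) or from 20 to 80% (light bars stacked on them) by distance from the nearest protein-coding start (kb, bins of unequal width, negative upstream). The dark bars are near 0 at the start and reach 37.5% in the bin from 10 to 20 kb downstream.

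Few dense methylated CpGs lay near unmethylated islands. Within 500 bases of a dense unmethylated CpG lay 2.85% of them, 55.3% of the dense CpGs with intermediate methylation and 0.232% of the highly methylated CpGs in sparse sequence. Within 5000 bases the shares of the dense and the sparse highly methylated CpGs were 16.8 and 9.54%, so the share was lower still in the sparse class. By density, 20.2% of CpGs with 10 or 11 neighbours were above 80%, 2.66% of those with 15 to 19 and 0.449% of those with 30 or more. The densest of these sites had 39 neighbours. Among the 134 with 30 or more neighbours, 38.1% were in start windows and 50% in coding exons. By chromosome, the share of dense CpGs that were highly methylated ran from 3.02% on chromosome 16 (304 sites) to 7.94% on chromosome 7 (2097 sites).

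Methylated CpG-dense starts were rare among genes. Of 10428 protein-coding genes with 3 or more dense CpGs in their start windows, 127 (1.22%) had 3 or more dense methylated CpGs there. The mean over the dense start CpGs was above 80% in 79 genes and under 20% in 10200. The list of germ-cell genes, which was drawn up with earlier results of these data known, stood out by its counts. Of its 76 genes 41 had 3 or more dense start CpGs, and in 25 of these (61.0%) 3 or more were highly methylated. In 22 of the 41 the mean was above 80% and in 11 it was under 20%, with a median of 80.7% against 1.16% over all 10428 genes. Together these genes held 301 dense methylated start CpGs, beside 1290 counted over all protein-coding genes.

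**Figure D3:**
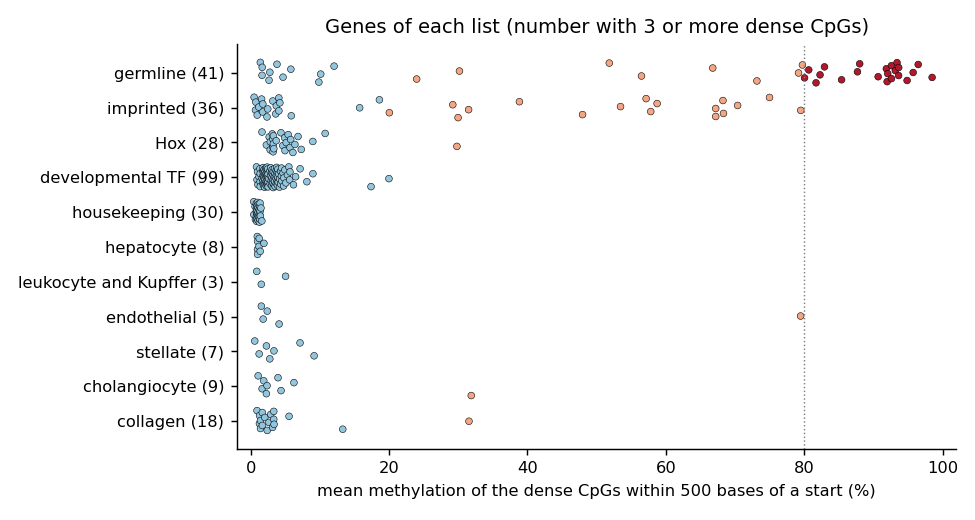
Mean methylation of the dense CpGs in the start windows (%, horizontal axis) for each gene of 11 lists, averaged over 8 mice, with the number of genes in brackets and the 80% threshold as a dotted line; colours separate means over 80%, from 20 to 80% and under 20%. Germ-cell genes fill the right side, while all 99 developmental transcription factors and all 30 housekeeping genes lie under 20%.

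The germ-cell genes with methylated starts covered the machinery of meiosis and of transposon defence. Among genes of the synaptonemal complex, which joins paired chromosomes in meiosis, Sycp1 had 17 of 19 dense start CpGs above 80%, Sycp2 18 of 31, Sycp3 5 of 6 and Syce3 8 of 11. Spo11, which cuts DNA to begin meiotic recombination, had 10 of 11. Hormad1 and Hormad2, proteins of the meiotic chromosome axis, had 7 of 8 and 4 of 6. Genes of the piRNA pathway, in which small RNAs silence transposons, were also present, with 13 of 13 at Asz1, 17 of 32 at Mael, 4 of 5 at Piwil2 and 3 of 3 at Mov10l1. The germ-cell helicase gene Ddx4 had 8 of 16, and the immunophilin gene Fkbp6 had 19 of 20. Further genes with 3 or more were Tex101, Stk31, Tex14, Dmrtb1, Tuba3a, Tuba3b, Sohlh2, Adad2, Pramel1 and Rpl10l, a testis copy of a ribosomal protein gene. The 4 CpGs at Tex14 lay equally in the start window of Rad51c, a gene on the other strand and outside the list. For Rpl10l, 3 of the 15 CpGs lay in 32-base sequences found more than once in the genome, so reads from a copy may be mixed in there. Reads were longer than 32 bases, and copies at read length were not searched.

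Other meiotic genes of the same list had unmethylated starts in the same libraries. The dense start CpGs averaged 1.39% at Meiob, which works with single-stranded DNA in meiotic recombination, 1.66% at Syce2, another synaptonemal complex gene, and 1.64% at Pld6, a piRNA pathway enzyme. They averaged 3.79% at Tdrd5 and 4.67% at Stag3, a meiotic cohesin subunit. The synaptonemal complex and the piRNA pathway thus each had members with starts on both sides.

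At 3 leading germ-cell genes start methylation was close in all mice. These genes were chosen for many CpGs with a high mean over the same mice, which leaves little room to differ. Not every germ-cell start was as even. The 16 dense start CpGs of Ddx4 averaged 72.3 to 92.5% in the young mice. At Hsf5, 44 of 46 dense start CpGs were above 80%, and the mean over the 46 was 94.4, 95.2, 94.3 and 95.2% in the mid-aged mice and 93.5, 94.4, 94.0 and 94.4% in the young mice. At Slc25a31, with 36 of 37, it was 91.8, 93.5, 95.2 and 93.7% against 94.7, 93.6, 93.5 and 91.4%. At Msh4, with 27 of 29, it was 93.0, 93.7, 93.2 and 92.3% against 95.2, 93.3, 93.1 and 93.3%. The age groups overlapped at all 3 genes, and no single CpG of theirs met the criteria for a change with age. The block of CpGs over each start, tested as below, had adjusted p-values of 0.990, 0.937 and 0.797.

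Dazl had a methylated and an unmethylated start within 1 gene. Its 32 dense methylated CpGs ran from 16 to 488 bases after the first annotated start, with a median of 97.0%. The second start lay 744 bases downstream of the first, and 25 CpGs from 529 to 894 bases, on both sides of that second start, had means under 20% with a median of 2.03%. The first start and the second start of the same gene thus had opposite levels in all the libraries together. Over the 60 dense CpGs of both start windows the mid-aged mean was 56.98% ± 0.768 and the young mean 55.99% ± 1.05 (SD, n = 4 each).

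**Figure D4:**
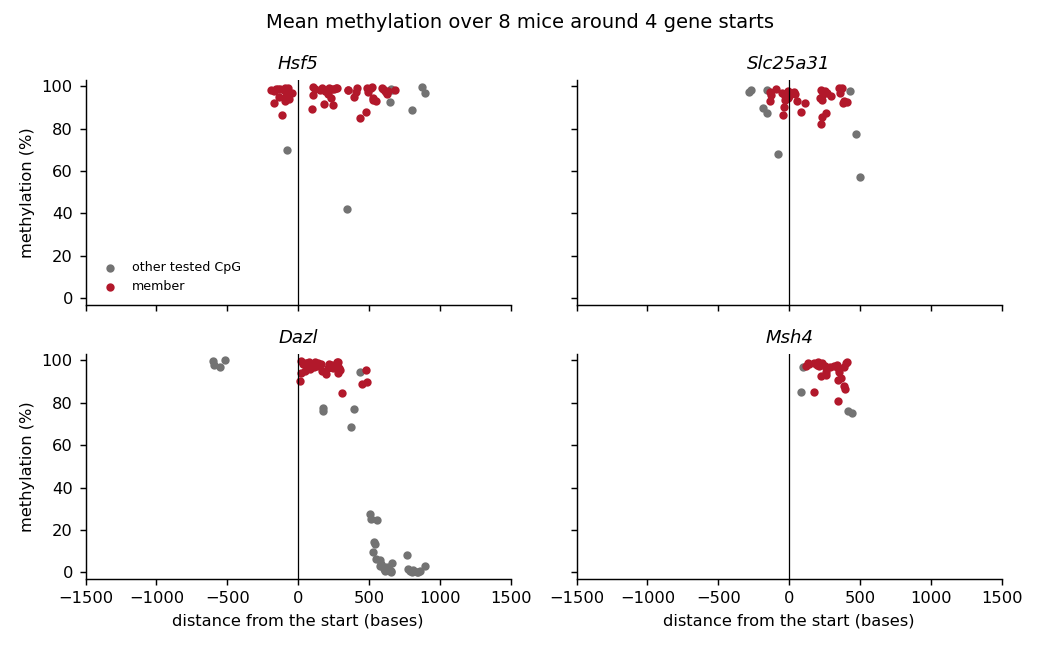
Mean methylation over 8 mice (%, vertical axis) of every tested CpG within 1500 bases of the first annotated start (bases, horizontal axis, negative upstream) of 4 germ-cell genes, with dense methylated CpGs in red. Dazl alone of the 4 drops under 20%, from 529 bases after its start.

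By the number of dense methylated CpGs in its start window, 4933428G20Rik came first, with 64 of 78. Its mean over those 78 CpGs was 89.97, 90.2, 91.0 and 89.0% in mid-aged mice and 87.4, 87.4, 88.3 and 86.3% in young mice. The groups did not overlap, and its block had an adjusted p of 0.0154, but the difference over the block was 1.95 percentage points, under the 5 points a call needed. 4933415F23Rik had 21 of 21, with means of 96.8% ± 0.418 in mid-aged and 96.5% ± 1.58 in young mice (SD, n = 4 each).

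At other leading genes the methylated start was one inside the gene. At Fignl2, which encodes an ATPase, the first start had 15 dense CpGs with a mean of 1.63%, and the 22 dense methylated CpGs lay at a second start 24168 bases downstream, where 28 dense CpGs averaged 86.3%. Tacc2, a gene of a centrosome-associated coiled-coil protein, had 10 dense CpGs averaging 1.46% at its second start and 19 dense methylated among 23 at its last, 115072 bases from the first. At Adra1b, an adrenergic receptor gene, all 35 dense start CpGs lay at the second start, 64878 bases into the gene, and 19 were highly methylated. Lrfn4, a gene of a neuronal adhesion protein, had 23 of 46 and Fut11, a fucosyltransferase gene, 20 of 40, both near the first start. Both had mixed levels, with means over the dense start CpGs of 74.4 and 71.5%.

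Imprinted genes, where 1 parental allele is methylated at some sites though not at every start, mostly fell below the threshold. Of 36 with 3 or more dense start CpGs, 3 (8.33%) had 3 or more above 80%, none had a mean above 80%, 19 had a mean under 20%, and the median was 17.2%. Nap1l5 had 7 dense methylated CpGs of 14, with a mean of 80.2% ± 1.94 in mid-aged and 78.8% ± 6.31 in young mice (SD, n = 4 each). Nnat had 9 of 30. Inpp5f had 6 among 10 dense CpGs at its last start, 77129 bases downstream of the first, and the 17 dense CpGs at the first averaged 0.668%.

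The remaining lists had almost no dense methylated start CpGs. None of 28 Hox genes, 99 developmental transcription factor genes, 30 housekeeping genes or 18 collagen genes had 3 or more. Of these lists, 27 Hox genes, all 99 developmental genes, all 30 housekeeping genes and 17 collagen genes had means under 20%. Among the cell type lists, 8 hepatocyte genes had means of at most 1.91%, 3 leukocyte and Kupffer cell genes of at most 5.04%, 7 stellate cell genes of at most 9.16% and 9 cholangiocyte genes of at most 31.9%. Of 5 endothelial genes, Eng, a coreceptor for transforming growth factor beta, had 3 dense methylated CpGs of 6 and means of 78.1% ± 1.61 in mid-aged and 80.9% ± 3.18 in young mice (SD, n = 4 each). Start methylation of these few genes does not measure how many other liver cells remained, and that share was not tested.

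Inside genes, 1909 protein-coding genes held at least 1 dense methylated CpG outside every start window, and 486 held 10 or more. Of those 486, 365 also had 3 or more dense start CpGs, and the start mean was under 20% in 351 and above 80% in 3. Over all protein-coding genes with 3 or more dense start CpGs, the start mean was under 20% in 10200 of 10428, so the share was no higher among the 365. Plec, the gene of the cytoskeletal linker plectin, had 102 of 104 dense body CpGs above 80%, of which 101 were in coding exons, and 5 of the 102 lay in repeated 32-base sequences. Shroom3 had 115 of 117, all in coding exons. The overlapping models Zfp865, Gm44973 and Ccdc106 shared 121. Bcl11b, a transcription factor of T cell development, had 91 methylated and 58 unmethylated of 149, Fignl2 83 of 119, the pacemaker channel gene Hcn2 68 of 101 and Gse1 67 of 260. The read-through model Gm20388 had 256 of 1022, and its span includes Gse1.

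Per mouse the bodies varied little. The dense body CpGs of Shroom3 averaged 96.3, 96.2, 96.1 and 96.5% in mid-aged mice and 94.4, 95.7, 96.2 and 96.3% in young mice. Those of Plec averaged 97.2, 97.4, 96.6 and 97.4% against 97.1, 96.8, 97.2 and 96.6%. In both genes the age groups overlapped.

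Genes with the zinc-finger symbol Zfp and a number were looked at after their values had been seen. Of 385 such genes 55 held dense methylated body CpGs and 30 held 10 or more. They contributed 805 of the 11316 coding sites (7.11%), against 1.96% of the dense unmethylated coding CpGs and 2.89% of all tested coding CpGs. Zfp865, Zfp316, Zfp579, Zfp775, Zfp787 and Zfp629 were among the leading ones, with 121, 53, 46, 44, 44 and 44 sites.

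In the coding exons, the cytosine of a dense methylated CpG was the first base of a codon in 37.3%, the second in 23.9% and the third in 38.8% of 11281 sites with a frame. Over all tested coding CpGs the shares were close to these, at 35.1, 26.2 and 38.8%. Dense unmethylated coding CpGs had 23.8, 32.1 and 44.1% and sparse methylated ones 44.2, 24.4 and 31.3%. Middle exons held 50.5% of the dense methylated coding sites, last exons 31.8%, first exons 8.91% and single-exon genes 8.75%. Over all tested coding CpGs the shares were 51.6, 21.5, 15.4 and 11.6% in the same order, so the middle-exon share was no higher among the sites. Of the dense unmethylated coding CpGs 34.8% were in first exons and 18.4% in middle exons. The exons had a median of 611 bases, against 433 for all tested coding CpGs, 183 for sparse methylated and 771 for dense unmethylated ones.

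In base composition the sites lay between unmethylated islands and the rest of the tested genome. In a window reaching 100 bases to either side of the CpG, the median GC content was 62.2%, against 69.2% for dense unmethylated, 50.2% for sparse methylated and 58.2% for all tested CpGs. The observed over expected CpG ratio, which is 1 where CpGs are as frequent as the base content predicts, had a median of 0.731, against 0.900, 0.319 and 0.591. Soft-masked repeat bases held 1622 sites (8.61%), near the 8.96% of all tested CpGs and above the 3.38% of dense unmethylated ones. The 32 bases around the site occurred more than once in the genome for 1080 sites (5.73%) and 5 or more times for 583.

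Motifs were searched in the same windows on both strands. The E-box CACGTG was present around 7.44% of the dense methylated CpGs, 5.32% of the dense unmethylated and 4.63% of all tested CpGs. Within start windows alone the shares were 8.24% of 2475 dense methylated and 5.25% of dense unmethylated CpGs. TTCCCGC, a sequence known from starts of germ-cell and cell cycle genes, was present around 3.69, 7.68 and 4.06% in the same order, and around 4.73% of dense methylated against 7.92% of dense unmethylated CpGs in start windows. The Hsf5 stretch printed above contains TTCCCGC once, on the opposite strand, and none of the other 9 does. CCGG, the MspI site itself, was in every window of the 18839 and in 99.992% of the windows of all tested CpGs. Windows of neighbouring CpGs overlap, so these shares are descriptions of counts.

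Taken over all 18839 sites, methylation was nearly the same in every mouse. The mean was 94.0, 94.1, 94.0 and 94.0% in the mid-aged mice and 94.1, 94.1, 93.8 and 93.6% in the young mice, and the groups overlapped. The group means were 94.0% ± 0.0472 and 93.9% ± 0.216 (SD, n = 4 each), a difference of 0.121 percentage points. The median difference over the sites was -0.0988 points and so had the opposite sign. From the 10th to the 90th percentile the differences ran from -4.27 to 4.87 points, and 82.5% of sites differed by less than 5 points. The dense CpGs of intermediate methylation averaged 48.2% in mid-aged and 45.7% in young mice, a difference of 2.47 points.

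Among themselves the sites were skewed towards full methylation. The median of the 8-mouse means was 95.7%, the 10th percentile 85.8% and the 90th 98.8%. Means were above 95% at 10387 sites (55.1%), and 176 sites had no unmethylated read in any mouse. By place, the median was 96.2% in coding exons, 95.4% in introns, 94.7% between genes and 94.4% in start windows. A site read as 100% in 28.6, 14.5, 22.9 and 17.5% of cases in the mid-aged mice and in 52.1, 40.6, 33.0 and 24.1% in the young mice, whose libraries had fewer reads. Sites under 50% numbered 3, 0, 1 and 0 in the mid-aged mice and 69, 23, 19 and 3 in the young mice. Around the mean of its group mates, a mouse's values over the sites had a root-mean-square deviation of 4.30 to 5.70 points in the mid-aged group and of 6.44 to 9.26 in the young group. Counting error of that mouse's own reads would give 2.79 to 4.31 and 3.63 to 4.91 points.

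Few single sites differed with age. A quasi-binomial test on the methylated and unmethylated reads of each CpG, with Benjamini-Hochberg adjustment over all 874644 CpGs, was used. A call needed an adjusted p below 0.05, group means 5 or more points apart and a variance below 0.05 within each group. Of all tested CpGs 0.103% were called lower and 0.063% higher in mid-aged mice. Against that background, 9 of the dense methylated CpGs (0.0478%) were called lower and 14 (0.0743%) higher. Among sparse methylated CpGs the shares were 0.0171% and 0.00601%, among dense intermediate ones 0.451% and 2.47%, and among all tested CpGs above 80%, dense or not, 0.0236% and 0.00908%. Without the adjustment, 887 sites were lower and 894 higher at p under 0.05. In both directions together that was 9.45% of the sites, close to the 9.14% of all tested CpGs. The groups did not overlap at 430 sites with mid-aged mice lower and 216 with mid-aged mice higher, 2.28% and 1.15% of the sites, against 1.23% and 2.34% of all tested CpGs. The depth of the libraries differed between the same groups, and its part in these counts was not tested. Depth also differed between the sets of CpGs, which was not tested either. Median reads per mouse were 59.9 at the dense methylated CpGs, 41.5 at the sparse methylated and 53.75 over all tested CpGs.

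The sites that rose in mid-aged mice were led by Mbnl2, a gene of a splicing regulator. The CpG at chr14:120389221, inside the gene and within 500 bases of the start of the antisense transcript Gm26679, was methylated at 100, 97.3, 94.6 and 95.4% in mid-aged mice and at 73.3, 63.5, 52.8 and 75.8% in young mice. Every mid-aged value was above every young value. The difference was 30.5 points (96.8% ± 2.41 against 66.3% ± 10.5, SD, n = 4 each, adjusted p = 0.00252), on 15 to 74 reads per mouse. Methylation at this site was close to full in mid-aged mice and partial in young ones. The rule kept only sites with a high mean over all mice, so a difference this large required a nearly full higher group.

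Cyp26c1 held 5 of the 14 sites that rose. At chr19:37693009, in the last of its 6 exons, methylation was 96.2, 96.3, 96.5 and 95.1% in mid-aged mice and 57.5, 65.9, 79.4 and 69.4% in young mice. The difference was 28.0 points (96.03% ± 0.648 against 68.1% ± 9.08, SD, n = 4 each, adjusted p = 1.83e-05) on 80 to 488 reads per mouse. The 5 sites differed by 11.8 to 28.0 points. In all 5 the young mice had the wider spread. The mid-aged values lay near full methylation, which bounds their spread, and the young libraries had fewer reads. The part of either was not tested. The 5 sites are neighbours in 1 stretch, so they are not 5 separate observations.

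A CpG at chr15:76457666 inside Bop1, a ribosome biogenesis gene, lay within 500 bases of the start of Scx, a tendon transcription factor gene on the other strand. Its methylation was 92.9, 94.8, 92.5 and 92.2% against 57.8, 77.9, 61.6 and 73.5%, a difference of 25.4 points (adjusted p = 0.00063). At chr19:6830458 in exon 16 of 17 of Rps6ka4, a stress-activated kinase gene, it was 90.3, 89.8, 92.3 and 91.5% against 64.8, 66.1, 73.6 and 85.7%, a difference of 18.4 points (adjusted p = 0.00797). Further sites that rose were in Anks1 (24.4 points), the Wnt receptor gene Fzd5 (20.02), Ajap1 (11.4) and Fbrsl1 (9.89), with adjusted p-values from 0.0263 to 0.0398. At all of these the groups did not overlap.

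The sites that fell in mid-aged mice were led by Bahcc1. Its CpG at chr11:120280638, in an intron, was methylated at 65.6, 72.3, 70.3 and 65.4% in mid-aged mice and at 100, 100, 100 and 97.8% in young mice. The difference was -31.0 points (68.4% ± 3.44 against 99.4% ± 1.111, SD, n = 4 each, adjusted p = 0.00252) on 16 to 78 reads per mouse. At Gpatch3 the CpG at chr4:133579864, in exon 3 of 7, was at 72.4, 78.3, 88.7 and 66.98% against 94.0, 99.1, 96.2 and 92.7% (-18.9 points, adjusted p = 0.0232). Young mice were near full methylation at both. With the high mean the rule demands, a large difference puts the higher group near the top, so this is no separate finding.

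In Epha2 the CpG at chr4:141308834, in exon 3 of 17, was at 85.7, 84.3, 82.6 and 74.0% against 100, 100, 97.4 and 96.2% (-16.7 points, adjusted p = 0.034) on 14 to 89 reads. At D1Pas1 a coding CpG at chr1:186968169 was at 88.5, 88.2, 80 and 89.8% in mid-aged mice and at 100% in all young mice (-13.4 points, adjusted p = 0.0306). The actin-binding protein gene Triobp fell by 11.8 points and Adra1b by 11.1 points. The last of the group, at chr19:9753989, lay 73128 bases from the nearest gene, AC132253.1, and fell by 18.2 points, but its 32 bases occur 3 times in the genome.

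These calls depended on the fit. With each mouse left out in turn, 5 of the 23 were kept in all 8 fits, namely Mbnl2, Bop1, Bahcc1 and 2 of Cyp26c1, and Fzd5, AC132253.1 and both sites of D1Pas1 were kept in 1 of 8. Leaving out any mid-aged mouse gave 2 or 3 lower and 4 to 7 higher calls, leaving out young mouse 1 gave 31 higher calls, and leaving out young mouse 2 or 3 gave 3 or 1 lower calls. Moderating the dispersion over all CpGs left none of the 23 calls, with 704 sites lower and 630 higher at an unadjusted p under 0.05, and limma on M values left Bahcc1 alone (adjusted p = 0.0411).

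Neighbouring CpGs share reads, so the same test was run on blocks, runs of 3 or more tested CpGs with gaps of at most 100 bases. Of 91476 blocks 2137 held 3 or more dense methylated CpGs, and together these held 16873 sites (89.6%). In 203 of them every tested CpG qualified, and 571 held 10 or more. The largest lay in Shroom3, where exon 5 of 11 held 92 such CpGs among 94 over 968 bases (chr5:92942028-92942995). Its methylation over all reads was 95.96, 95.8, 95.6 and 95.98% in mid-aged mice and 94.1, 95.1, 95.9 and 96.1% in young mice (adjusted p = 0.489). Fignl2 followed with 66 of 77 in its coding exon, Zfp865 with 60 of 73, Hcn2 with 56 of 72 and the kinase gene Sbk1 with 52 of 52. Of these 5 only Hcn2 passed the adjusted p of 0.05, with 87.8% ± 0.513 in mid-aged mice and 84.6% ± 1.31 in the young (SD, n = 4 each, adjusted p = 0.00289), and its 3.22 points were too small for a call.

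Of all blocks 0.647% were called lower and 0.372% higher in mid-aged mice, of blocks with 3 or more dense CpGs 0.253% and 0.654%, and of blocks with 10 or more tested CpGs 0.461% and 0.819%. The 2137 blocks held a median of 5878 reads and 12 tested CpGs, against 2234 reads and 5 CpGs over all blocks. The part of depth in the call shares was not tested. Of the 2137 blocks 11 were called lower (0.515%) and 34 higher (1.59%). Limma on M values ended 44 of these 45 calls and left Cyp26c1 alone (adjusted p = 0.0415), with 46 blocks lower and 83 higher at an unadjusted p under 0.05. The adjusted p-values given for single blocks are from the quasi-binomial test. These shares describe whole blocks, since in 40 of the 45 the other CpGs of the block differed more than the dense methylated ones. The dense methylated CpGs moved the same way as their block in 40 of 45, by 5 points or more in 21. When the reads of the dense methylated CpGs alone were tested, 3 were called lower and 7 higher, and 8 of the 45 calls were kept.

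Among the blocks called higher, Rps6ka4 had the most dense methylated CpGs, 25 of 45 (chr19:6829896-6830705). The block stood at 87.7, 85.8, 86.5 and 85.9% in mid-aged mice and at 79.7, 81.2, 77.7 and 77.5% in young mice (7.43 points, adjusted p = 2.7e-06). Its dense methylated CpGs differed by 4.58 points and its other 20 CpGs by 13.2. In the Cyp26c1 block (chr19:37692864-37693476), 9 of 45 CpGs were dense methylated and 35 were called one by one. It stood at 83.7, 81.5, 84.0 and 83.3% against 45.2, 52.4, 56.5 and 55.8% (30.7 points, adjusted p = 1.84e-12), with the 9 sites 18.6 points and the other 36 CpGs 33.2 points higher. In both blocks the CpGs of lower methylation, which the rule leaves more room to differ, had the larger differences.

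Esr1, the gene of estrogen receptor alpha, had 16 dense methylated CpGs of 49 in its first coding exon, in a block at 79.7, 75.4, 75.9 and 74.1% against 65.2, 65.9, 73.1 and 66.4% (8.60 points, adjusted p = 0.00079). Fbrsl1 had 15 of 30 (5.74 points), the kinase gene Map3k10 14 of 29 (8.96) and the kinesin gene Kifc2 13 of 25 (9.28). Their adjusted p-values ran from 0.000264 to 0.0353. From Esr1 to Kifc2 in this order, the dense methylated CpGs differed by 4.81, 4.91, 5.86 and 5.85 points. The other CpGs of these blocks differed by 9.90, 6.06, 12.8 and 12.1. In the quasi-binomial test of the dense methylated CpGs alone, adjusted p-values were 0.162, 0.00379, 0.0283 and 0.515, and only Map3k10 kept its call. The Kifc2 groups overlapped, and its call was lost without mid-aged mouse 1, 3 or 4 or young mouse 1, 2 or 4 (adjusted p up to 0.101). The imprinted Nnat block, inside Blcap, had a mid-aged mean of 78.05% ± 1.26 and a young mean of 71.1% ± 2.63 (SD, n = 4 each, 6.97 points, adjusted p = 0.00056). Its 9 dense methylated CpGs were 9.25 points higher, more than the other 21 CpGs at 6.51, and alone they kept the call (adjusted p = 0.00116).

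Among the blocks called lower, Adra1b had 19 dense methylated CpGs of 45 (chr11:43835868-43836645), with the block at 73.6, 80.6, 77.8 and 72.6% in mid-aged mice and at 84.5, 82.6, 80.6 and 80.01% in young mice. The groups overlapped (-5.76 points, adjusted p = 0.0328), and the call was lost without mid-aged mouse 1 or 4 or young mouse 1, 2 or 3 (adjusted p up to 0.152). Its dense methylated CpGs differed by -7.33 points. In Epha2 15 of 29 CpGs qualified (chr4:141308577-141309001), and the block stood at 63.2, 60.2, 67.5 and 59.4% against 77.1, 69.1, 71.7 and 69.9% (-9.40 points, adjusted p = 0.00464). The first 166 bases of that block held 8 CpGs under 20%, beside the 15 methylated ones from base 197 to base 400.

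The other named blocks that fell were in the polarity gene Llgl2 (10 of 20, -7.86 points), in Repin1, a zinc-finger gene that overlaps Gm45021 (10 of 15, -6.15), in Qprt, an enzyme gene of NAD synthesis (7 of 12, -7.47), and in the adaptor gene Traf4 (6 of 12, -10.7). Their adjusted p-values ran from 0.000515 to 0.00536, and without mid-aged mouse 2 the Qprt call was lost (adjusted p = 0.0508). In all 4 the dense methylated CpGs themselves differed by less than 3 points, from -1.24 to -2.91, and the other CpGs by -11.5 to -22.3.

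**Figure D5:**
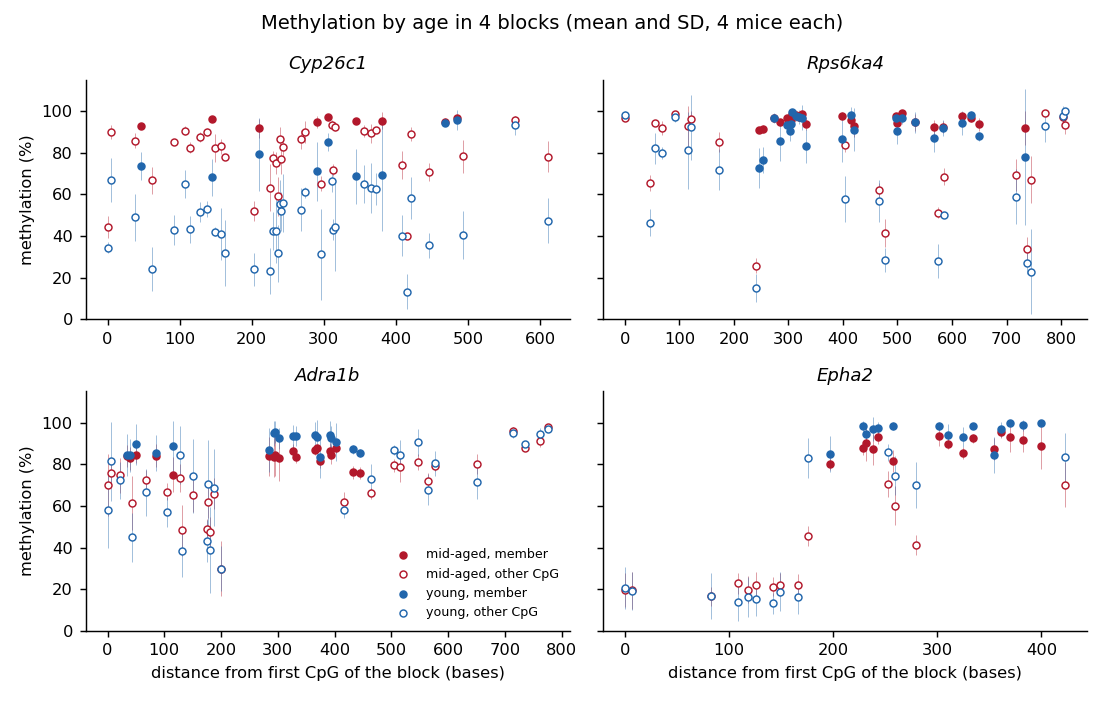
Methylation (%, vertical axis, mean and SD of 4 mice) of each tested CpG in 4 blocks by distance from the first CpG of the block (bases, horizontal axis), mid-aged in red and young in blue, with dense methylated CpGs filled and other CpGs open. In Cyp26c1 and Rps6ka4 the open points differ more than the filled ones, and in Epha2 methylated and unmethylated CpGs lie side by side.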

How the data were processed

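RRBS libraries of perfused hepatocytes from 8 C57Bl6/J mice were read on the mm10 build. The authors deposited, for each mouse and strand of each CpG, the count of reads and the percent methylated, each mouse on its own. Tools listed in the submitters' processing notes were BWA 0.6.2, Trim Galore 0.4.2, Picard 1.115, SAMtools 1.3 and FastQC. The methylation caller's version and settings are not given in the sources used here. PCR duplicates cannot be told apart in RRBS fragments, and incomplete bisulfite conversion would raise methylation.

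From these files, methylated reads were the deposited percent of the count, rounded (100% of entries gave whole reads within the rounding of the deposited percent), and strands were summed. Of 2986981 CpGs with a read, 874644 had 5 or more reads in every mouse on chromosomes 1 to 19. All but 22 of them were CG in the GRCm38.p6 reference, and 1 of those 22 was a dense methylated CpG. The members and the gene lists were chosen with earlier results of these data known, and the lists give counts only.

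Places came from GENCODE release M21 (basic transcripts), which may not be the authors' annotation. Of the list genes, those of the germ-cell, imprinted, Hox, endothelial, cholangiocyte and collagen lists all matched a symbol, as did 113 of 114 developmental, 34 of 37 housekeeping, 49 of 52 hepatocyte, 27 of 28 leukocyte and 19 of 20 stellate genes.

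A logistic quasi-binomial F test compared 4 mid-aged with 4 young mice per CpG and per block. Dispersions were moderated with limma's squeezeVar over CpGs with a dispersion above 0 and kept at 1 or more. Benjamini-Hochberg adjustment ran over all CpGs or all blocks, and the difference and variance criteria were those of the study, which had used limma. The script was tested on simulated data. Named genes were the 12 with the most start-window members, the 10 with the most elsewhere, list genes with 3 or more start-window members, the 8 largest called members per direction, the 6 called blocks per direction with the most members and the 5 largest blocks. Genes given beside these, as counts or contrasts, were chosen after their values were seen. Of the named blocks, 1 is not reported here.

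The alternatives were limma on M values, the log2 of methylated over unmethylated reads with 1 added to each, a replicate block, other coverage, density, mean, gap and window limits, and leaving out each mouse. Restriction to 32-base sequences found once, blocks with 50% or more members, and the reads of members alone were added after seeing the data. Reads per mouse limit precision, and young libraries were shallower. Python 3.11.15, numpy 2.4.6, pandas 2.3.3, scipy 1.17.1, matplotlib 3.10.9, R 4.3.3 and limma 3.58.1 were used.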

Additional observations from a re-analysis of the deposited data

Results flagged for a closer look

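In each of 89 values the mouse farthest from its 3 group mates was compared with the range of its group of 4, and 9 of 178 groups had a mouse that stood apart, about the 1 in 20 that chance gives. Among gene starts, the dense CpGs of Msh4 averaged 95.2% in young mouse 1 beside 93.1 to 93.3% in the other young mice, those of 4933415F23Rik 96.2% in mid-aged mouse 3 beside 97.0 to 97.1%, and those of Adra1b 79.3% in young mouse 1 beside 74.8 to 75.4%. The dense body CpGs of Fignl2 averaged 76.0% in mid-aged mouse 4 beside 76.9 to 77.1%. The Bahcc1 CpG was at 97.8% in young mouse 4 and at 100% in the other young mice. At D1Pas1, the CpG at 186968169 was at 80% in mid-aged mouse 3 beside 88.2 to 89.8%, and the CpG at 186968019 at 74.1% in mid-aged mouse 1 beside 77.8 to 78.4%. The Esr1 block was at 73.1% in young mouse 3 beside 65.2 to 66.4%, and the Fbrsl1 block at 77.5% in mid-aged mouse 3 beside 74.7 to 74.97%.

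The files also hold 147 to 449 reads per library on a sequence named L, which the labels do not describe. Mid-aged mouse 1 had 3.56% methylated there (16 of 449 reads, 95% Wilson interval 2.21 to 5.71%) and young mouse 1 had 4.08% (6 of 147, 1.88 to 8.62%), above 3 reads, while the other libraries had 0 to 1.40%.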

How the results depend on the processing

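The number of dense methylated CpGs depended on how density was defined. It was 29162 with density from all CpGs of the reference, 8877 with density from CpGs past the coverage minimum, 39705 at 8 or more neighbours and 9259 at 12 or more, and it stayed from 14923 to 20192 under the coverage, mean, pooling, copy and leave-one-out alternatives (18834 to 20192 with a mouse left out). The age difference in the mean was 0.0272 to 0.180 points with a mouse left out and kept its sign under every alternative run. Calls of single CpGs were the least stable. Against 9 lower and 14 higher, limma on M values gave 1 and 0 (unadjusted p under 0.05 at 447 and 1034), moderation over all CpGs 0 and 0 (704 and 630), and leaving out a mouse 1 to 12 and 4 to 31. For blocks, against 11 lower and 34 higher, limma gave 0 and 1 (46 lower at an unadjusted p under 0.05), the adjusted p alone 52 higher, gaps of at most 50 bases 6 lower, blocks with 50% or more members 6 and 9, members alone 3 and 7, and leaving out a mouse 9 to 15 and 28 to 35. On members alone the direction turned for Prkcz (-2.84), Dnase2a (-0.575), Akap5 (-2.61), Zmiz1 (-0.251) and Sik1 (1.47 points). Start windows of 1500 bases upstream and 500 downstream put 15.4% in starts and 58.8% in coding exons, windows of 1000 bases 16.7%, 57.7% and 11.5% in introns, and all transcripts 22.1%, 53.5%, 4.04% in other exons and 9.39% in introns. With a mouse left out, starts held 13.04 to 13.2% and coding exons 59.9 to 60.4%. Causes were not tested beyond what each alternative changes.

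Replicate numbers were not used to pair the samples in the main test. Deviations of same-numbered mice correlated at -0.0032 to 0.0073. That cannot show whether the numbers mark a shared preparation, which the labels do not say. With the replicate number as a block, 0 CpGs were called lower and 0 higher (663 and 661 at an unadjusted p under 0.05), and 16 blocks lower and 38 higher.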

Other observations

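Outside the fixed lists and the named genes, a further set of genes with methylated CpG-dense starts was chosen after the values were seen. Zglp1, a transcription factor gene of germ cells, had 18 of 21 dense start CpGs above 80% and a mean of 89.4%. Hist1h2ba, the gene of a testis form of histone, had 14 of 15 (93.9%), and Pabpc6, a gene of the poly(A)-binding protein family, 16 of 17 (91.5%). Topaz1, a gene of meiosis, had 8 of 10 (84.2%), and Dnajc5g 8 of 8 (94.7%). Krt72, a keratin gene of the hair follicle, had 16 of 17 (88.3%), and Sec1 17 of 19 (92.2%).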
